A study of Mus musculus with 5 samples.

Results

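The genes described here encode respiratory complex I of the mitochondrion, NADH:ubiquinone oxidoreductase, and the proteins that help to put it together, measured in invariant natural killer T (iNKT) cells of mouse liver. They are the protein-coding genes whose symbols start with Ndufa, Ndufb, Ndufc, Ndufs, Ndufv, Ndufab or Ndufaf followed by a digit. There were 46 of them among 55364 gene rows, 38 named as subunits and 8 as assembly factors (Ndufaf). Invariant NKT cells are T lymphocytes with a nearly fixed receptor for lipid antigens on CD1d, and these had been sorted with a CD1d tetramer loaded with PBS57 and an antibody to T cell receptor beta. The HCC group, 3 libraries, came from livers with hepatocellular carcinoma of male wild-type C57BL/6 mice that had received, when 15 days old, 1 intraperitoneal dose of the liver carcinogen diethylnitrosamine (DEN, 25 mg/kg). The healthy group, 2 libraries, came from wild-type mice given PBS. Age at death was 38 to 42 weeks, the tumour model rests on 1 carcinogen given to young males, and the labels speak of livers without setting tumour apart from adjacent tissue.

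Complex I takes electrons from NADH and passes them along a chain of iron-sulfur clusters to ubiquinone, while its membrane arm pumps protons out of the matrix. Core subunits carry the catalysis: the N module oxidises NADH and the Q module reduces quinone, and both lie in the peripheral arm that reaches into the matrix. The core of the membrane arm is encoded in mitochondrial DNA, and the tables hold 0 rows of the mitochondrial chromosome, so it is not analysed here. Accessory subunits surround the core, and assembly factors bind intermediates and leave before the enzyme is finished. T cells use oxidative phosphorylation in the resting and memory states, and more glycolysis when activated.

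The libraries were 3' mRNA libraries with 1718452 to 2224356 counts. Levels are given as CPM, counts scaled to each table's own total; since a 3' library counts transcripts near their ends, levels are not divided by length. Where no read was counted, the level can still be as high as 3 counts, which is 1.35 to 1.75 CPM, and this limit and the intervals below cover counting error only. The T cell receptor genes Trac and Trbc2 were at 488 to 803 and at 1323 to 2391 CPM, and Zbtb16, the defining transcription factor of iNKT cells, at 0 to 1.65 CPM. Klrb1c, which encodes NK1.1, was at 465, 20.9 and 333 CPM in HCC 1 to 3 and at 382 and 5.49 CPM in healthy 1 and 2. Summed markers of hepatocytes (20 genes) were at 91.4, 360.2 and 768 CPM in HCC 1 to 3 against 58.4 and 62.0 CPM in healthy 1 and 2, with 1 to 6 markers at 0 per HCC library and 9 and 6 in healthy 1 and 2. Summed erythroid markers (7 genes) ranged from 7391 to 17080 CPM in HCC libraries (1 to 2 markers at 0) and from 2787 to 2975 CPM in healthy libraries (2 to 3 at 0). These markers moved with the groups, and their part in the results below was not tested. HCC 2 and HCC 3 have table names that begin with the same number, so they may stem from 1 mouse, although the labels count 3 mice. In these bulk samples fewer cells of a type and less RNA per cell cannot be told apart.

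Subunit transcripts were, in sum, at a lower level in HCC libraries than in healthy libraries. The 38 subunits summed to 3821 CPM in HCC 1 (95% Wilson interval 3732 to 3911), 3853 CPM in HCC 2 (3761 to 3947) and 3558 CPM in HCC 3 (3474 to 3644). In healthy 1 and healthy 2 they summed to 4091 CPM (4008 to 4175) and 4245 CPM (4151 to 4340). All 3 HCC libraries thus lay below both healthy libraries, with 3744 ± 162 CPM in HCC and 4168 ± 109 CPM in healthy libraries (SD, n = 3 and n = 2), a ratio of 0.898. No test is given for the sum. After TMM scaling, which corrects for a few abundant genes taking a large share of a library, the ratio was 0.789, and with the totals of protein-coding rows it was 0.858. The groups did not overlap on either scale. After TMM scaling HCC 1 to 3 summed to 3678, 3440 and 3559 CPM. Healthy 1 and 2 then summed to 4931 and 4096 CPM, so TMM scaling raised healthy 1 and lowered healthy 2. On the scale of own totals the ratio was 0.882 without healthy 1 and 0.915 without healthy 2. These ratios with a library left out were not taken after TMM scaling. Ndufs6, Ndufa2, Ndufa5 and Ndufb10 are abundant members picked, after their values were seen, for being high in healthy 1, so leaving them out had to lower the sum of that library. Without them the sums on the scale of own totals were 2967, 2954 and 2582 CPM in HCC 1 to 3 and 2220 and 3336 CPM in healthy 1 and 2. On that scale healthy 2 was still above every HCC library, while healthy 1 was below them all, and the ratio was 1.02. The sums without these members were not taken after TMM scaling, which raises healthy 1.

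The 8 assembly factors were expressed at a far lower level. They summed to 129.5, 114 and 84.9 CPM in HCC 1 to 3 and to 109 and 130.1 CPM in healthy 1 and 2, and these ranges overlapped. After TMM scaling they summed to 124.7, 101.8 and 84.95 CPM in HCC 1 to 3 and to 131.7 and 125.5 CPM in healthy 1 and 2, where the HCC libraries lay below both healthy libraries at a ratio of 0.807. On the scale of own totals the group values were 109.5 ± 22.6 CPM in HCC and 119.7 ± 14.7 CPM in healthy libraries (SD, n = 3 and n = 2).

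**Figure D1:**
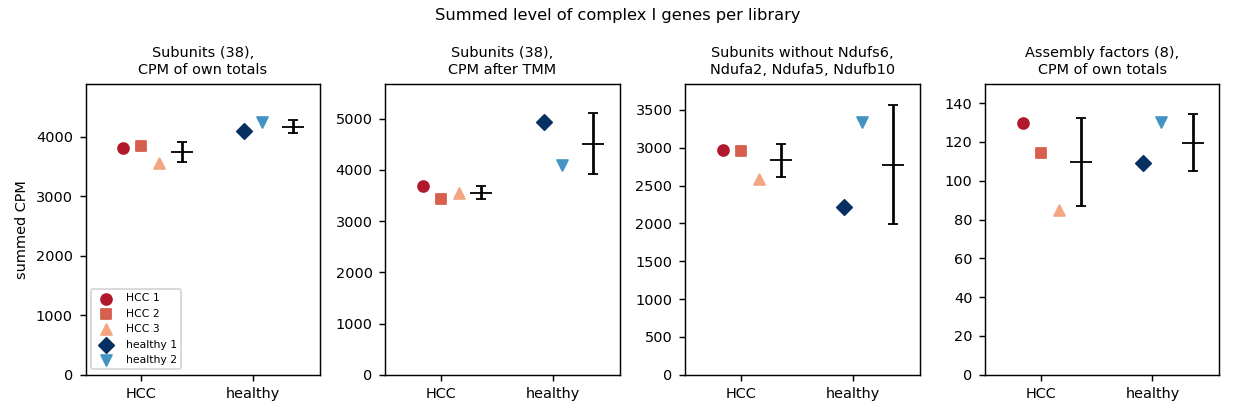
Summed CPM of complex I genes (vertical axis, from 0) in the HCC libraries and the healthy libraries. Each marker is 1 library, and the black bar with whiskers is the group mean with SD (n = 3 HCC, n = 2 healthy). The panels show 38 subunits on the scale of own totals and the same after TMM scaling. The last 2 panels, on the scale of own totals, show the subunits without Ndufs6, Ndufa2, Ndufa5 and Ndufb10, and 8 assembly factors. The groups are apart in both panels of all subunits and overlap in the last 2.

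No member of the group passed the test. Over all 5 libraries, edgeR's quasi-likelihood test covered 8468 genes, of which 0 (0%) had an adjusted p under 0.05, and 307 (3.63%) had an unadjusted p under 0.05. The test could be run on 43 of the 46 members, 37 subunits and 6 assembly factors. Of these 0 were called (adjusted p = 0.9999 for every member) and 2, Ndufs6 and Ndufc1, had an unadjusted p under 0.05, a share of 4.65% against 3.63% of all genes tested. The DESeq2 Wald test and limma-voom also called 0 members, each with 2 at an unadjusted p under 0.05. The fitted fold change was below 0 for 27 tested subunits and above 0 for 10, while it was below 0 for 49.7% of all genes tested. The median log2 fold change of the tested subunits was -0.18, beside 0.0046 over all genes tested. With library totals in place of TMM factors the median of all genes was 0.165 and that of the subunits -0.0089, so relative to all genes the subunits were lower by a like amount on both scalings. Under library totals the split of the subunits was 19 below and 18 above 0, while 39.2% of all genes tested were below 0. The tested assembly factors were split 3 and 3. Their median of 0.21 had no stable sign. It was -0.45 without HCC 1, -0.29 without HCC 3, -0.12 without healthy 1 and -0.22 with HCC 2 and HCC 3 summed. Over the factors with at least 10 CPM in 2 libraries it was -0.27. Of the factors fitted higher, Ndufaf5 and Ndufaf7 passed the filter on low counts only through HCC libraries. Of those fitted lower, Ndufaf1 passed it only through healthy libraries.

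Members with HCC and healthy groups that did not overlap were few. On the scale of own totals, 12.8% of genes tested had their 3 highest values in the HCC libraries and 5.46% had their 3 lowest there. Among the 38 subunits this was so for 3 in each direction (7.89% each). Higher were Ndufab1, Ndufc2 and Ndufv2, and lower were Ndufs6, Ndufc1 and Ndufa11. Of the assembly factors 1, Ndufaf1, was lower and 0 were higher in all HCC libraries. After TMM scaling the same 3 were higher, and more genes, among them Ndufb5 and the assembly factor Ndufaf8, joined the lower ones, where the shares of all genes tested were 10.6% higher and 8.44% lower.

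Ndufs6 encodes a zinc-binding accessory subunit of the peripheral arm that is needed to complete the N module (ENSMUSG00000021606, chromosome 13, 73319838 to 73328542, mm10). It was at 240.0, 172 and 205 CPM in HCC 1 to 3 and at 490.5 and 289 CPM in healthy 1 and 2. All HCC libraries lay below both healthy libraries, and healthy 1 was the highest by far. The log2 fold change was -1.15 (SE 0.41, edgeR adjusted p = 0.9999). Without healthy 1 it was -0.51, and without healthy 2 it was -1.53 with an edgeR adjusted p of 0.0442, a fit in which the spread of healthy 1, then alone in its group, is taken from the HCC libraries. That fit called 2.01% of genes tested and 2 of 43 members (4.65%), the other being Ndufb3. On the opposite strand the row overlaps Mrpl36, and how strands were counted is not given in the sources used here, so reads of both genes cannot be told apart where they overlap.

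Ndufc1, a small accessory subunit of the membrane arm (ENSMUSG00000037152, chromosome 3, 51404677 to 51408988), was at 73.5, 80.9 and 72.7 CPM in HCC 1 to 3 and at 114.6 and 125 CPM in healthy 1 and 2. The highest HCC library was well below the lower healthy library. The log2 fold change was -0.85 (SE 0.35, edgeR adjusted p = 0.9999) and stayed between -0.89 and -0.75 when each library was left out in turn. No gene annotated in GENCODE M21 overlaps it.

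Ndufa11, a membrane arm subunit known from structures to touch complex III in supercomplexes (ENSMUSG00000002379, chromosome 17, 56717767 to 56722141), was at 96.3, 102 and 82.3 CPM in HCC 1 to 3 and at 133.5 and 115 CPM in healthy 1 and 2. HCC 2 lay closest to the healthy range. The log2 fold change was -0.61 (SE 0.36, edgeR adjusted p = 0.9999), and -0.32 without healthy 1.

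Ndufab1 had the opposite pattern. It encodes the mitochondrial acyl carrier protein, which is part of complex I and also serves mitochondrial fatty acid synthesis and iron-sulfur cluster formation (ENSMUSG00000030869, chromosome 7, 122085403 to 122101886). It was at 74.0, 62.3 and 61.6 CPM in HCC 1 to 3 and at 25.2 and 40.1 CPM in healthy 1 and 2. Each HCC library exceeded the higher healthy one, and the log2 fold change was 0.86 (SE 0.41, edgeR adjusted p = 0.9999), between 0.69 and 1.10 with each library left out in turn. Of the 31-base words at its 3' end 21.4% occur in other genes, mainly the processed pseudogene Gm4459. With its 2 pseudogene rows added it was at 143, 145.5 and 99.8 CPM in HCC 1 to 3 and at 56.2 and 90.6 CPM in healthy 1 and 2, and the groups still did not overlap.

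Ndufc2, a membrane arm subunit needed to assemble that arm (ENSMUSG00000030647, chromosome 7, 97400003 to 97407802), was at 89.8, 76.2 and 60.0 CPM in HCC 1 to 3 and at 23.8 and 59.8 CPM in healthy 1 and 2. HCC 3 was barely above healthy 2, and the distance between the groups came mainly from healthy 1. The log2 fold change was 0.72 (SE 0.45, edgeR adjusted p = 0.9999), 0.30 without healthy 1 and 1.37 without healthy 2.

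Promoter windows are shown for 3 members with separate groups, 2 lower (Ndufs6, Ndufa11) and 1 higher (Ndufab1) in HCC libraries, to show what sequence precedes these genes. They are from RefSeq (GRCm38.p6) and run from 250 bases before to 50 bases after the annotated start, read 5′ to 3′ on the strand of the gene. The window of Ndufs6 is chr13:73328433-73328732 (minus strand), that of Ndufa11 chr17:56717512-56717811 (plus strand) and that of Ndufab1 chr7:122101799-122102098 (minus strand). Capitals mark a match to GCGCATGCG, the core of the NRF1 motif, a factor known for driving nuclear genes of respiration, to CCGGAAGTG, an ETS family motif, or to AAGATGGCG, the core of a YY1 motif, on either strand. In Ndufa11 a forward and a reverse match of the NRF1 core overlap, and the capitals cover both.
Ndufs6: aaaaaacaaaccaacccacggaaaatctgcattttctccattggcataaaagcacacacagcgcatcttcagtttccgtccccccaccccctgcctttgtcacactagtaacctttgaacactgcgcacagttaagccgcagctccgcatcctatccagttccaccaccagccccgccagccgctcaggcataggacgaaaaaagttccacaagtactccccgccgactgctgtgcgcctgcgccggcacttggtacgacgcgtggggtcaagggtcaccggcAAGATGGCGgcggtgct
Ndufa11: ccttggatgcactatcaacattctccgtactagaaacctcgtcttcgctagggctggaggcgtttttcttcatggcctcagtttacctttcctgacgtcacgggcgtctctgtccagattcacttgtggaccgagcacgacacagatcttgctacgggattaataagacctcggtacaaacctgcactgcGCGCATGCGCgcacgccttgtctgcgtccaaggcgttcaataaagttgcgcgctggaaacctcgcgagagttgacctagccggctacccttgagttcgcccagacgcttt
Ndufab1: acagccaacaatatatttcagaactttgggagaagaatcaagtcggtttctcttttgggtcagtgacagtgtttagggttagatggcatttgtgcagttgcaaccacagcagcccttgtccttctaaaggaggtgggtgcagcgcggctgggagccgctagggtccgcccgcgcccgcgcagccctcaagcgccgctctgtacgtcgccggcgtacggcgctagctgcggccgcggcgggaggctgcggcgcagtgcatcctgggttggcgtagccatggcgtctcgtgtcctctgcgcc
The YY1 motif lies just after the start of Ndufs6 and the NRF1 motif upstream of the start of Ndufa11, and none of the 3 motifs is in the window of Ndufab1. RefSeq windows matched 40 of the 46 members (42 windows). On either strand NRF1's motif was in 4 of these 42 windows (9.52%, of Ndufa8, Ndufa11, Ndufaf4 and Ndufaf5) and in 1.75% of all 32851 windows. YY1's was in 6 (14.3%, of Ndufa9, Ndufaf8, Ndufc1, Ndufs4, Ndufs6 and Ndufs7) and in 1.4% of all, and the ETS motif in 1 (2.38%, of Ndufs3) and in 2.03% of all. Members with a motif include genes fitted higher and genes fitted lower in HCC libraries. A match is a description of the letters only.

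**Figure D2:**
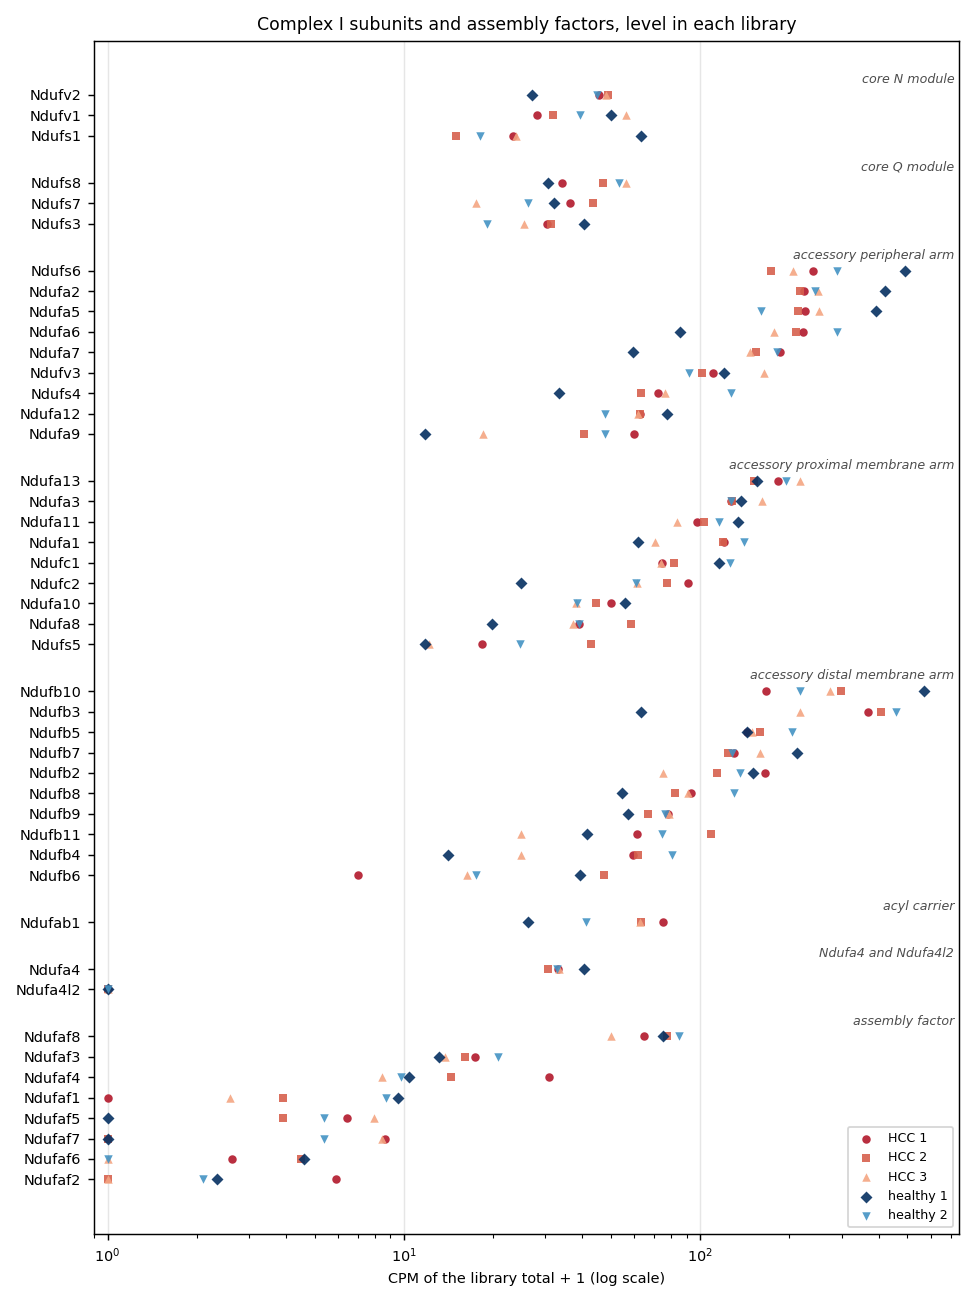
Levels of 45 complex I genes in each library, as CPM of the library's own total plus 1 on a logarithmic axis, grouped by role. Red markers are HCC 1 to 3 and blue markers healthy 1 and 2. Healthy 1 (dark diamonds) is the outermost library of most subunits, on the high side for Ndufb10 (568 CPM) and on the low side for Ndufb3 (62.0 CPM).

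The 7 core subunits of the peripheral arm were at modest levels, and the 6 described below averaged 27.6 to 43.2 CPM over the 5 libraries. All 7 summed to 262, 272 and 276.5 CPM in HCC 1 to 3 and to 298 and 330.4 CPM in healthy 1 and 2, 270.2 ± 7.23 and 314 ± 22.8 CPM (SD, n = 3 and n = 2), without overlap between the groups. This sum hid opposite deviations of single genes. The place of healthy 1 above the HCC libraries came from Ndufs1, at 62.0 CPM in healthy 1 and at 22.3, 14.0 and 22.8 CPM in HCC 1 to 3. Less Ndufs1, the core sum of healthy 1 is below those of all HCC libraries, and the groups overlap. The separation was not checked with other single members left out.

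In the N module, Ndufv1, which binds NADH and the flavin, was at 27.2, 30.8 and 55.2 CPM in HCC 1 to 3 and at 49.0 and 38.4 CPM in healthy 1 and 2. The groups overlapped (log2 fold change -0.40, SE 0.50). Ndufv2, its iron-sulfur partner (ENSMUSG00000024099, chromosome 17, 66078638 to 66101559), was at 44.6, 47.7 and 47.2 CPM in HCC 1 to 3 and at 26.1 and 43.9 CPM in healthy 1 and 2. HCC 1 and healthy 2 were almost equal, and the log2 fold change of 0.26 (SE 0.42) was 0.056 without healthy 1. Ndufs1, which carries several iron-sulfur clusters, was at 22.3, 14.0 and 22.8 CPM in HCC 1 to 3 and at 62.0 and 17.0 CPM in healthy 1 and 2. Healthy 2 lay inside the HCC range, and the log2 fold change was -1.27 (SE 0.64) with all libraries but 0.20 without healthy 1.

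In the Q module, Ndufs7, which holds the last cluster before quinone, was at 35.4, 42.5 and 16.45 CPM in HCC 1 to 3 and at 31.02 and 25.25 CPM in healthy 1 and 2. Both healthy libraries lay inside the HCC range. Ndufs8, which carries iron-sulfur clusters, was at 33.2, 46.0 and 55.2 CPM in HCC 1 to 3 and at 29.7 and 52.1 CPM in healthy 1 and 2. Ndufs3, a core subunit without a cluster, was at 29.4, 30.3 and 24.4 CPM in HCC 1 to 3 and at 39.6 and 18.1 CPM in healthy 1 and 2. The groups overlapped for both, and 66.3% of the 31-base words of Ndufs3 also occur elsewhere, mainly in the pseudogene Gm12251. Log2 fold changes were -0.066 (SE 0.52) for Ndufs7, -0.011 (SE 0.45) for Ndufs8 and -0.29 (SE 0.53) for Ndufs3.

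The highest levels were those of accessory subunits. The 5 members with the highest mean were Ndufb10, Ndufb3, Ndufs6, Ndufa2 and Ndufa5, and for each of them healthy 1 was the outermost of the 5 libraries. Ndufb10, a subunit of the distal membrane arm on the side of the intermembrane space (ENSMUSG00000040048, chromosome 17, 24722060 to 24724478), was at 165, 298 and 273 CPM in HCC 1 to 3 and at 568 and 216 CPM in healthy 1 and 2. Healthy 2 lay inside the HCC range, and the log2 fold change of -0.94 (SE 0.50) was 0.15 without healthy 1.

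Ndufb3, also of the distal membrane arm (ENSMUSG00000026032, chromosome 1, 58586384 to 58595964), deviated the other way. It was at 369, 407 and 216 CPM in HCC 1 to 3 and at 62.0 and 456 CPM in healthy 1 and 2, so the healthy libraries lay on either side of all HCC libraries. The log2 fold change was 0.28 (SE 0.62) with all libraries, -0.50 without healthy 1 and 2.11 without healthy 2 (edgeR adjusted p = 0.0405), again with healthy 1 as the lone healthy library. Of its 3' words 24.8% occur in the pseudogene Gm45930.

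Ndufa2, an accessory subunit of the N module with a thioredoxin-like fold, was at 224, 216.5 and 248 CPM in HCC 1 to 3 and at 421 and 244 CPM in healthy 1 and 2. Ndufa5, an accessory subunit at the Q module, was at 225, 212 and 250.5 CPM in HCC 1 to 3 and at 390.2 and 159.7 CPM in healthy 1 and 2. For both, healthy 1 was high and healthy 2 within or below the HCC range. Log2 fold changes were -0.76 (SE 0.40) for Ndufa2 and -0.51 (SE 0.46) for Ndufa5, and -0.11 and 0.50 without healthy 1.

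Other accessory subunits, named after their values were seen, also varied between libraries of 1 group. Ndufa6, an LYR motif protein that binds an acyl carrier protein, was at 221, 210 and 176 CPM in HCC 1 to 3 and at 84.5 and 289 CPM in healthy 1 and 2. Ndufs4, which stabilises the N module and whose loss in mice models Leigh syndrome, was at 71.3, 62.3 and 74.8 CPM in HCC 1 to 3 and at 32.4 and 126 CPM in healthy 1 and 2. For both genes the HCC libraries lay close together between the healthy ones. Healthy 1 was the lowest library of both. Ndufb4, of the distal membrane arm, was at 58.2, 60.5 and 23.9 CPM in HCC 1 to 3 and at 13.0 and 79.6 CPM in healthy 1 and 2, with healthy 1 the lowest and HCC 3 also low. Ndufb6, of the same arm, had the widest spread of any subunit with counts among HCC libraries, with HCC 1 its lowest library: it was at 5.99, 46.6 and 15.4 CPM in HCC 1 to 3 against 38.2 and 16.5 CPM in healthy 1 and 2.

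By position in the enzyme, the 9 accessory subunits of the peripheral arm summed to 1396, 1228 and 1342 CPM in HCC 1 to 3 and to 1684 and 1473 CPM in healthy 1 and 2, without overlap. The 9 of the proximal membrane arm summed to 791.8, 799 and 745.8 CPM in HCC 1 to 3 and to 708.5 and 857.9 CPM in healthy 1 and 2. The 10 of the distal membrane arm (all Ndufb) summed to 1265, 1462 and 1100.0 CPM in HCC 1 to 3 and to 1336 and 1512 CPM in healthy 1 and 2. For both membrane arm groups the HCC and healthy ranges overlapped. In the peripheral arm sum, the place of healthy 1 above the HCC libraries came from Ndufs6, Ndufa2 and Ndufa5. These abundant members were highest in healthy 1, while Ndufa6 and Ndufs4 of the same arm were lowest there. With TMM scaling, fitted fold changes were below 0 for 5 of 9 peripheral, 6 of 9 proximal and 9 of 10 distal genes, with medians of -0.235, -0.10 and -0.27, against 5, 3 and 6 genes with library totals. Of all genes tested 49.7% were fitted below 0 with TMM scaling and 39.2% with library totals. In edgeR 0 genes of any of these 3 groups of accessory subunits were called.

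**Figure D3:**
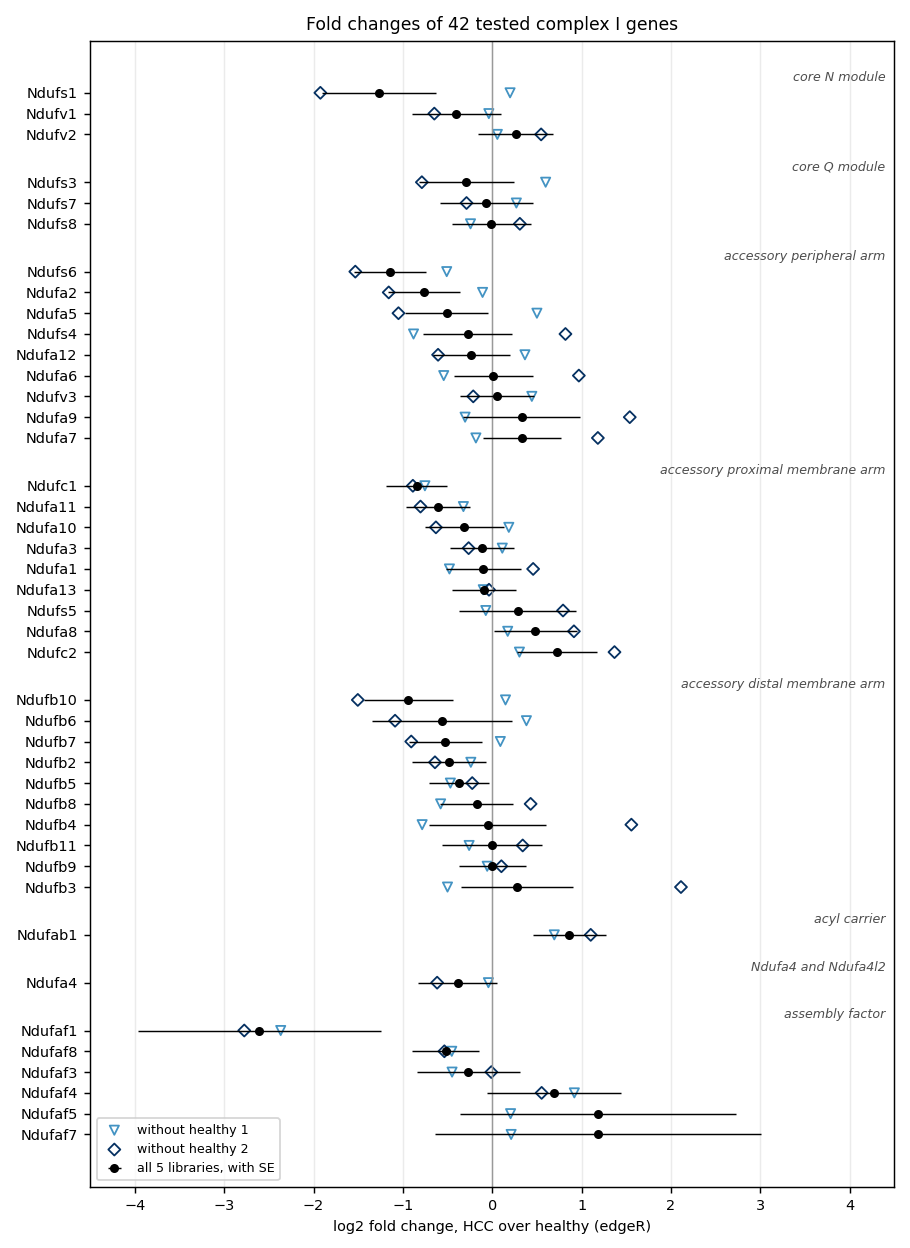
Log2 fold changes of HCC over healthy for 42 tested complex I genes, from edgeR with TMM scaling, grouped by role. Black points with bars are the values from all 5 libraries with SE, open light blue triangles those without healthy 1 and open dark blue diamonds those without healthy 2 (none for Ndufaf5 and Ndufaf7, which have 0 counts in healthy 1). The 2 open markers lie close together for Ndufc1 and far apart for Ndufb3, at -0.50 and 2.11.

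Ndufa4, long counted as a complex I subunit and now assigned to cytochrome c oxidase, was at 32.1, 29.7 and 32.4 CPM in HCC 1 to 3 and at 39.6 and 31.8 CPM in healthy 1 and 2. The groups overlapped by a small margin (log2 fold change -0.39, SE 0.45). Its paralogue Ndufa4l2, known as a target of hypoxia-inducible factor, had 0 counts in all 5 libraries, so its level was at most 1.35 to 1.75 CPM, depending on the library.

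Among the assembly factors, 3 averaged at least 10 CPM. Ndufaf8, which in human cells stabilises Ndufaf5, was the most abundant, at 63.7, 76.2 and 48.8 CPM in HCC 1 to 3 and at 74.2 and 84.0 CPM in healthy 1 and 2. Only HCC 2 reached above healthy 1. The log2 fold change was -0.52 (SE 0.37), and after TMM scaling all HCC libraries lay below both healthy libraries.

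Ndufaf3 and Ndufaf4 act together on the early Q module. Ndufaf3 was at 16.3, 15.1 and 12.7 CPM in HCC 1 to 3 and at 12.1 and 19.8 CPM in healthy 1 and 2, with the HCC libraries inside the healthy range. Ndufaf4 was at 29.9, 13.4 and 7.43 CPM in HCC 1 to 3 and at 9.44 and 8.78 CPM in healthy 1 and 2. HCC 1 and HCC 2 lay above both healthy libraries and HCC 3 below both, and the log2 fold change of 0.69 (SE 0.75) was -0.028 without HCC 1.

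The other 5 assembly factors averaged 1.47 to 4.15 CPM. Ndufaf1, which helps to build the membrane arm, had 0, 5 and 3 counts in HCC 1 to 3 and 19 and 14 counts in healthy 1 and 2. All HCC libraries were thus below both healthy libraries, in a gene that passed the filter on low counts only through its healthy libraries, where it is high (log2 fold change -2.61, SE 1.36, edgeR adjusted p = 0.9999). Ndufaf5, which in human cells hydroxylates Ndufs7, and Ndufaf7, a methyltransferase, had 0 counts in healthy 1 and at most 14 elsewhere. Both passed the filter only through HCC 1 and HCC 3, where they are high, and neither was fitted without either of these libraries. Ndufaf7 also had 0 counts in HCC 2. Ndufaf2 and Ndufaf6 did not pass the filter, with at most 9 and 8 counts in any library.

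The library that stood apart most often was healthy 1. Among 37 subunits with a mean of at least 10 CPM, it was the highest library for 11 and the lowest for 15, together 70.3%, whereas it was outermost for 64.6% of all 5904 rows at such levels. The other libraries were outermost for 24.3 to 37.8% of these subunits. Healthy 1 and healthy 2 differed by more than 2-fold in 17 of the 37 subunits (45.9%), healthy 1 being higher in 5 and lower in 12, beside 44.3% of all rows at such levels. Across the 37 subunits, which are not independent replicates, log2 levels of healthy 1 correlated with the other libraries at a Pearson r of 0.637 to 0.802. Healthy 2 correlated with HCC 1, HCC 2 and HCC 3 at 0.921, 0.903 and 0.86, and the HCC libraries with each other at 0.829 to 0.868. The complex I profile of healthy 2 was therefore closer to those of the HCC libraries than to that of the other healthy library.

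**Figure D4:**
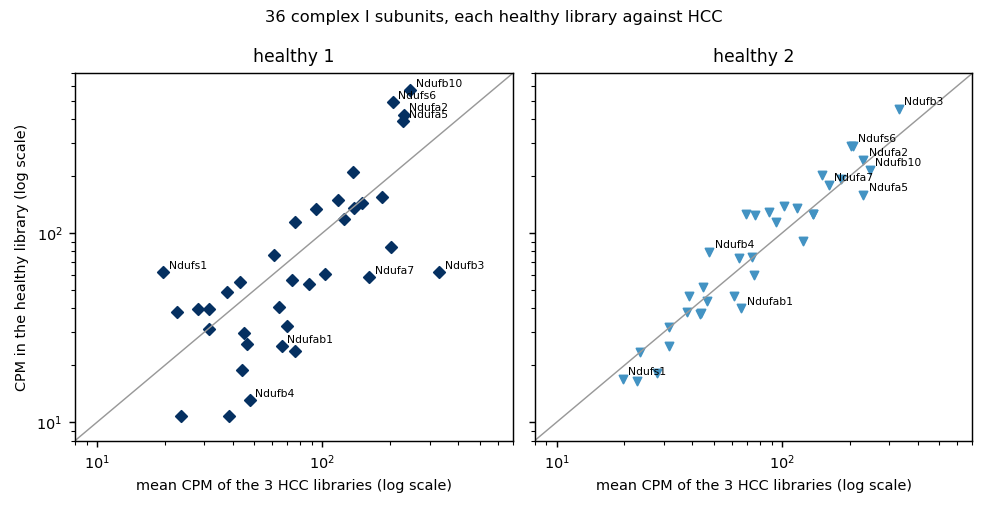
Levels of 36 complex I subunits with a mean of at least 10 CPM in healthy 1 (left) and healthy 2 (right) on the vertical axis, against the mean of the 3 HCC libraries on the horizontal axis (CPM of own totals, both axes logarithmic). The grey line marks equal levels. Points scatter widely around it in healthy 1, where Ndufb3 is at 62.0 CPM and Ndufb10 at 568 CPM, and lie closer to it in healthy 2.

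Some members share 3' sequence with other genes, so their values are uncertain. For 8 members more than 20% of the 31-base words at the 3' end also occur in other genes: Ndufa12, Ndufab1, Ndufb11, Ndufb2, Ndufb3, Ndufb6, Ndufs3 and Ndufs5. Ndufs5, a membrane arm subunit with 54.5% shared words, was at 17.4, 41.9 and 11.15 CPM in HCC 1 to 3 and at 10.8 and 23.6 CPM in healthy 1 and 2. Its processed pseudogene BC002163 was higher in every library, at 46.25, 69.25 and 41.9 CPM in HCC 1 to 3 and at 34.6 and 57.1 CPM in healthy 1 and 2. Gm6444, the pseudogene of Ndufb11, was at 83.3, 75.1 and 62.1 CPM in HCC 1 to 3 and at 94.4 and 102 CPM in healthy 1 and 2. Ndufb11 itself was at 60.4, 108 and 23.9 CPM in HCC 1 to 3 and at 40.5 and 73.55 CPM in healthy 1 and 2. Ndufb6 shares 66.0% of its words with Smim27, which overlaps it on the opposite strand. Annotated overlaps on the opposite strand also join Ndufa11 to Vmac, Ndufab1 to Gm44986 and Ndufs3 to Kbtbd4, and Gm16053 overlaps Ndufc2 on the same strand. Without these 8 members the summed subunit level had a ratio of 0.856, with no overlap between the groups. The row Ndufb1-ps, annotated here as a long noncoding RNA and in RefSeq as the coding gene Ndufb1, lies outside the rule. It was at 110.5, 113.5 and 97.1 CPM in HCC 1 to 3 and at 49.0 and 198 CPM in healthy 1 and 2.

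Of 12 assembly factors with other names, 11 had a row, 9 could be tested and 0 were called in either direction in edgeR, with 7 fitted higher and 2 lower and a median log2 fold change of 0.35. They summed to 112, 166 and 120.0 CPM in HCC 1 to 3 and to 69.2 and 110.3 CPM in healthy 1 and 2, with HCC 1 barely above healthy 2. Foxred1, a flavoprotein of complex I assembly, was at 10.9, 20.4 and 12.7 CPM in HCC 1 to 3 and at 1.35 and 7.68 CPM in healthy 1 and 2. Tmem70, which acts in assembly of ATP synthase and complex I, was at 23.9, 28.5 and 17.0 CPM in HCC 1 to 3 and at 2.25 and 16.5 CPM in healthy 1 and 2. These were the 2 genes of this list with separate groups, both higher in HCC libraries, beside 12.8% of all genes tested, and HCC 3 was only just above healthy 2 for Tmem70.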

How the data were processed

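Each library has 1 table of whole-number counts by Ensembl gene ID, deposited by the authors without normalization. Per the labels' protocols, RNA of sorted iNKT cells was made into 3' mRNA libraries (QuantSeq kit for Ion Torrent). The submitters' processing notes name the build mm10 and, with no role given, HISAT2, Bowtie2, bcl2fastq, edgeR, limma, DESeq and DESeq2. The counting program, annotation and strand setting are not given in the sources used here. The design text counts each library as 1 mouse.

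Symbols came by gene ID from GENCODE M21 (GRCm38, the assembly of mm10). Counts were tested in R 4.3.3 with edgeR 4.0.16: filterByExpr by group, TMM, quasi-likelihood F test over 8468 genes, Benjamini-Hochberg adjustment, threshold 0.05, and SE from the same fit. TMM factors were 1.039, 1.12 and 0.9998 for HCC 1 to 3 and 0.8295 and 1.036 for healthy 1 and 2, and the biological coefficient of variation was 53.8%. The test was checked on simulated counts, with recovery of changes required only at a spread far below that of these data. The check therefore does not show what share of true changes the test could find here. Alternatives included DESeq2 1.42.0, limma-voom (limma 3.58.1), other scalings and filters, and leaving out each library.

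To measure shared 3' sequence, the final 300 bases of a member's coding transcripts were divided into 31-base words, and the percentage found in transcripts of other genes was taken. Pseudogenes counted with a member share at least 50 words with it.

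Sums, counts and medians cover all members, and 1 member is not reported here on its own. The members and lists were chosen with earlier results of these data known. Values in every library are given for members called, with separate groups at 10 CPM or more on average, in the core, among the 5 highest, for assembly factors of at least 10 CPM, and for Ndufs6, Ndufa4, Ndufa4l2 and Ndufab1. Ndufaf1, Ndufa6, Ndufs4, Ndufb4, Ndufb6, Ndufb11, Ndufs5, Ndufb1-ps, 2 other assembly factors and the pseudogenes were named after their values were seen. Hepatocyte and erythroid sums are given above. Summed markers of macrophages were at 11.2 to 33.8 CPM in HCC and 8.78 to 43.2 CPM in healthy libraries, of B cells at 0 to 25.6 CPM in HCC and 4.95 to 16.5 CPM in healthy libraries, of neutrophils at 2.12 to 12.2 CPM in HCC and 0 to 1.10 CPM in healthy libraries, and of T and iNKT cells at 6779 to 7764 CPM in HCC and 5843 to 7177 CPM in healthy libraries.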

Additional observations from a re-analysis of the deposited data

How the results depend on the processing

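The count of called genes, 0 in edgeR with all libraries, was 53 with no filter on low counts, 8 in the DESeq2 Wald test, 3 in a fit with replicate block, and 0 to 196 with each library left out. Complex I members among them were 0 in each case except without healthy 2, which gave 2, so the range was 0 to 2. The block pairs libraries that share only a number. Deviations from the group means correlated at -3.57e-05 for the pair numbered 1 and at 0.125 for the pair numbered 2. HCC 3, which has no partner, correlated with healthy 1 at 0.129. With 2 healthy libraries the deviations of healthy 1 mirror those of healthy 2, so these values cannot tell whether the numbers mark pairs. The median log2 fold change of tested subunits, -0.18, was -0.19 with the replicate block and -0.23 to -0.074 with each library left out. That of tested assembly factors, 0.21, was -0.27 with at least 10 CPM in 2 libraries, where 3 factors were left, -0.22 with HCC 2 and HCC 3 summed to 1 library, and -0.45 to 0.32 with each library left out. The cause was not tested.

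Subunits with all HCC libraries lower numbered 5 after TMM scaling (13.2%, beside 8.44% of all genes tested). With own totals they numbered 3 (7.89%, beside 5.46%). With an HCC library left out they numbered 4 to 5, without healthy 1 they numbered 11 and without healthy 2 they numbered 12. Those with all HCC libraries higher numbered 3 to 5 with an HCC library left out, 8 without healthy 1 and 15 without healthy 2. Fewer libraries separate more easily. The shares of all genes tested were not taken with a library left out or with protein-coding totals. Counts under these settings therefore cannot be set beside such a share. For assembly factors the lower ones were 2 after TMM scaling (25.0%, beside 8.44% of all genes tested) and 2 with protein-coding totals. With each library left out 1 to 3 were lower and 0 to 2 higher. The ratio of summed subunit levels, 0.898, was 0.789 after TMM scaling, 0.858 with protein-coding totals, 0.856 without members of over 20% shared words, 1.02 without Ndufs6, Ndufa2, Ndufa5 and Ndufb10 (chosen after seeing the data) and 0.882 to 0.921 with each library left out. With the pseudogene rows, also chosen after seeing the data, it was 0.902. Ratios with members or a library left out, or with pseudogene rows, are on the scale of own totals. That of the assembly factors, 0.915, was 0.807 after TMM scaling, where the groups no longer overlapped, 0.875 with protein-coding totals and 0.831 to 1.02 with each library left out.

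Among 19 named and tested members, 11 kept the sign of their fold change under every setting run. Signs changed for Ndufs7 (0.16 with library totals, 0.25 with the replicate block) and Ndufs8 (0.13 with library totals, 0.025 with no filter). With each library left out, log2 fold changes were -0.50 to 2.11 for Ndufb3, -1.93 to 0.20 for Ndufs1, -0.29 to 0.27 for Ndufs7, -0.24 to 0.31 for Ndufs8, -1.51 to 0.15 for Ndufb10, -0.79 to 0.60 for Ndufs3, -0.028 to 1.04 for Ndufaf4, -1.05 to 0.50 for Ndufa5 and -1.53 to -0.51 for Ndufs6. Of all 43 tested members, 18 kept their sign in every setting that fitted them, among them Ndufc1, Ndufa11, Ndufs6, Ndufab1, Ndufc2 and Ndufv2. Ndufaf1, Ndufaf5 and Ndufaf7 are counted among them but were not fitted in every setting. Ndufaf5 and Ndufaf7 passed the filter only through HCC 1 and HCC 3. They were not fitted without either of these libraries, so those settings could not reverse their sign. The share of all genes that kept their sign was not taken. Depth limits the assembly factors below 10 CPM, whose counts were at most 19.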
